A study of Mus musculus with 12 samples.

Results

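RNA of the olfactory bulb was compared with RNA of the cerebellum, 2 of the 4 dissected brain regions in a mouse microarray study of long noncoding RNAs (lncRNAs) and messenger RNAs. The comparison used the 6 of 12 samples whose tissue label names the olfactory bulb (replicates 1, 2 and 3) or the cerebellum (replicates 1, 2 and 3). The remaining samples, 3 of hypothalamus and 3 of hippocampus, entered the estimate of the spread and are given where they place a difference. All samples came from male BALB/c mice aged 10 weeks, with no treatment or transgene named in the labels. The study text gives 3 mice for the arrays, and the labels do not tie an array to an animal, so the p-values cover the spread among arrays, which may be technical.

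The olfactory bulb is the first relay of smell: axons of nasal sensory neurons end there on mitral and tufted cells, and inhibitory granule cells are added to it throughout adult life. The cerebellum, which coordinates movement, is dominated by excitatory granule neurons and holds Purkinje cells as its only output neurons of the cortex. lncRNAs are transcripts with no known protein product, many of which are restricted to few tissues. Long intergenic noncoding RNAs (lincRNAs) are those that lie between protein-coding genes. In dissected tissue, fewer cells of a type cannot be told apart from less RNA per cell.

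Each scan measured 60915 probes, not counting controls and negative probes. The share well above background ranged from 91.06% to 93.17% over the 6 scans, and no spot was saturated. Cerebellum scans 1 and 3 were nearly identical: their log2 difference had an SD of 0.025 over 11053 bright probes, against 0.341 between cerebellum scans 1 and 2 and 0.373 to 0.443 between olfactory bulb scans. They were therefore averaged and counted as 1 array, which left 3 olfactory bulb arrays and 2 cerebellum arrays. Below, cerebellum array 1 is this mean and cerebellum array 2 is scan 2. A level is the log2 signal minus that scan's own 75th percentile, and a difference is the olfactory bulb mean minus the cerebellum mean. Levels of different probes are not comparable, since each probe binds with its own strength. Apart from 15 genes, the files name probes only by array-design IDs. None of the 138 genes in 17 lists of cell type, region and lncRNA markers had a naming probe, so the dissection labels could not be set against markers.

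The olfactory bulb and the cerebellum differed at many probes, and more of the called probes were higher in the olfactory bulb. Of 56573 probes tested, 5327 (9.42%) passed an adjusted p of 0.05 (limma, Benjamini-Hochberg) with at least a 2-fold difference. Of these, 3355 (5.93% of those tested) were higher in the olfactory bulb, with a median of 3.23-fold, and 1972 (3.49%) were higher in the cerebellum, with a median of 2.92-fold. The olfactory bulb direction thus held 63.0% of the called probes. Of the 3355 and 1972 probes, 291 and 112 were well above background on no scan of the other region. Their differences, which enter these counts and medians, are no measured sizes, and part of them may not reach 2-fold. Without the size threshold, 12210 probes (21.6%) passed the adjusted p. With replicate number as a block (the replicate block), 20505 (36.2%) did so. In that fit 3389 (5.99%) and 2292 (4.05%) passed both thresholds in the olfactory bulb and cerebellum directions.

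Most called differences were moderate, and very large ones were more numerous in the olfactory bulb direction. Between 2-fold and 4-fold lay 2058 probes higher in the olfactory bulb and 1401 higher in the cerebellum. Between 8-fold and 32-fold the counts were 447 and 181. Beyond 32-fold they were 118 and 42. These counts use the fitted differences of all called probes. They include the probes well above background on no scan of the other region, whose fold is only bounded from below.

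The balance of the directions was not the same within scan times. Scan times 1 and 2 each held 1 scan of each region, so that differences within them have no replicate and no test. At scan time 1 the cerebellum value is scan 1 by itself, not the averaged array. At scan time 1, 4326 probes favoured the olfactory bulb by 2-fold or more and 3823 the cerebellum. At scan time 2 the balance turned, with 3582 and 6281 probes. The called probes themselves kept their direction nearly throughout: 3353 of 3355 and 1970 of 1972 had the same sign at scan time 1, and all of them did at scan time 2. These signs are no independent check, since the same scans entered the test.

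**Figure D1:**
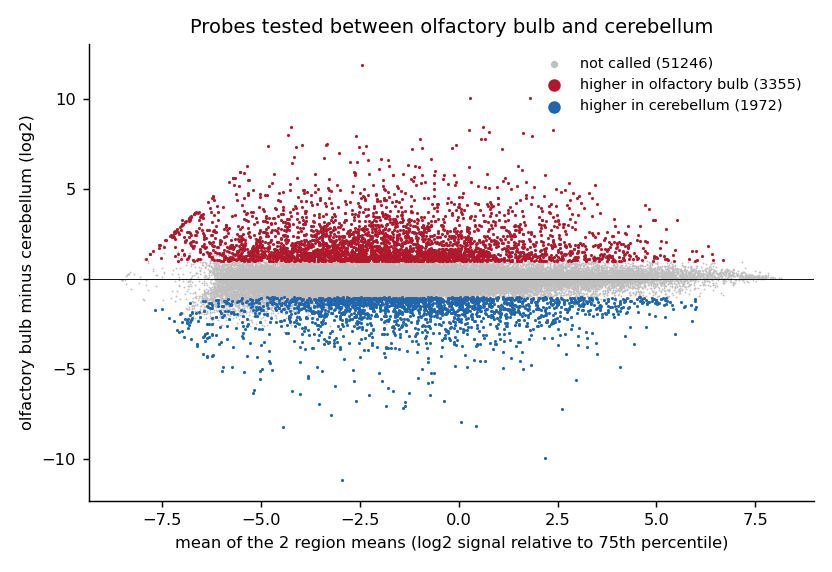
Difference between the regions (olfactory bulb minus cerebellum, log2) against the mean of both region means (log2 signal minus the scan's 75th percentile) for the 56573 probes tested. Red points are the 3355 probes called higher in the olfactory bulb and blue points the 1972 called higher in the cerebellum. Grey points were not called. Of the red and blue points, 291 and 112 were well above background on no scan of the other region. Their plotted differences are no measured sizes.

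The probes with the largest differences in the olfactory bulb direction, among those above background on each of the 6 scans, differed by 222-fold to 1090-fold. These were the 10 called array-design probes with the largest change. Since they were picked by the size of their difference on these arrays, a lack of overlap follows from the choice and adds no support. The same holds for the other probes picked below for a large difference. Probe ASMM10P010906 had levels of 6.87, 6.77 and 6.87 on the olfactory bulb arrays and -3.08 and -3.42 on the cerebellum arrays. All olfactory bulb arrays lay far above both cerebellum arrays, with a difference of 10.09 ± 0.155 (SE), or 1090-fold (limma adjusted p = 2.24e-08). Its hypothalamus mean of 1.03 and hippocampus mean of 1.99 lay between the ends. Here and below, the order of the 4 regions describes their means and was not tested.

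Probe ASMM10P051524 differed by nearly as much. Its levels were 5.29, 5.24 and 5.43 in the olfactory bulb and -4.65 and -4.86 in the cerebellum, a difference of 10.08 ± 0.103 (SE), or 1080-fold (limma adjusted p = 8.26e-09). Groups did not overlap, and the hypothalamus mean of 1.81 and the hippocampus mean of 0.17 again lay between them.

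Of these 10 probes, 7 fell into groups with adjoining design numbers: ASMM10P012846 and ASMM10P012847, ASMM10P032823 and ASMM10P032824, and ASMM10P021310, ASMM10P021312 and ASMM10P021313. ASMM10P012846 had levels of 4.96, 4.76 and 4.87 in the olfactory bulb against -3.58 and -3.65 in the cerebellum, a 357-fold difference. ASMM10P012847 had levels of 6.49, 6.43 and 6.65 against -1.71 and -1.78, a 308-fold difference. The arrays of each region stood close together for both probes, with no overlap. Both were also higher in the hippocampus, at means of 3.13 and 5.36, than in the hypothalamus, at -0.99 and 1.89; that difference was not tested.

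The 3 probes around ASMM10P021310 had hypothalamus and hippocampus means that lay between the olfactory bulb and the cerebellum. ASMM10P021310 itself had levels of 5.75, 5.59 and 5.72 in the olfactory bulb and -2.26 and -2.64 in the cerebellum, a 282-fold difference. Its hypothalamus mean was 0.70 and its hippocampus mean 1.04, so that the olfactory bulb stood above each other region. ASMM10P019065 had a different pattern. Its olfactory bulb levels of 5.91, 5.74 and 5.86 were close to the hypothalamus mean of 5.33 and the hippocampus mean of 5.78, and the cerebellum arrays at -1.97 and -2.30 stood apart as the low region. Its 251-fold difference was thus shared by the other regions.

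In the cerebellum direction, the 10 probes with the largest differences were 85.7-fold to 964-fold higher. Probe ASMM10P011114 had levels of 7.17 and 7.10 on the cerebellum arrays and -2.67, -2.98 and -2.68 on the olfactory bulb arrays. The difference was -9.91 ± 0.133 (SE), or 964-fold (limma adjusted p = 1.94e-08), with no overlap. The hypothalamus mean of -2.15 and the hippocampus mean of -3.13 lay near the olfactory bulb, leaving the cerebellum as the high region.

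Probe ASMM10P028337 was 283-fold higher in the cerebellum, at 4.52 and 4.47 against -3.65, -3.66 and -3.63, and it was low in the hypothalamus (-2.77) and hippocampus (-4.62) too. ASMM10P026710 was 147-fold higher, at 6.30 and 6.12 against -0.86, -1.10 and -1.0. The replicates of both probes spread by far less than the regions differed. ASMM10P006670 was less even: olfactory bulb array 1 lay at -4.90 and the others at -3.52 and -3.35, against 4.15 and 3.88 in the cerebellum. Its difference of -7.94 ± 0.425 (SE) passed all the same (limma adjusted p = 5.44e-06).

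The hippocampus mean was nearer the olfactory bulb than the cerebellum for all 10 of these probes, and the hypothalamus mean for 8 of them. The exceptions were ASMM10P047242 and ASMM10P049108. ASMM10P047242 had a hypothalamus mean of 0.22, between 3.12 and 2.90 in the cerebellum and -3.62, -3.92 and -3.71 in the olfactory bulb. ASMM10P049108 had a hypothalamus mean of -0.99 and a hippocampus mean of -6.68, with the cerebellum at 2.16 and 1.91 and the olfactory bulb at -4.63, -4.76 and -4.90. For the 10 largest probes of the olfactory bulb direction, both other regions were nearer the olfactory bulb for 3 and nearer the cerebellum for 3.

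**Figure D2:**
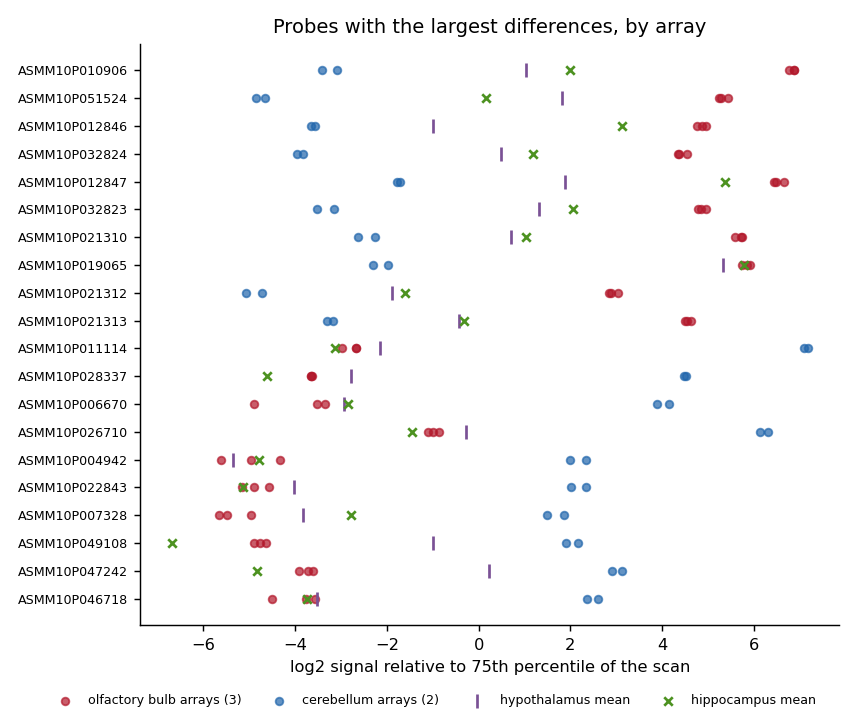
Level of each of the 20 probes with the largest differences (log2 signal minus the scan's 75th percentile), with 1 point per olfactory bulb array (red, 3) and cerebellum array (blue, 2). Purple bars and green crosses mark the hypothalamus and hippocampus means. For every probe the red and blue points do not overlap, which follows from picking the probes by the size of their difference.

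The same asymmetry appeared over all called probes. The 3355 probes higher in the olfactory bulb had median levels of -0.91 there, -1.60 in the hypothalamus, -1.65 in the hippocampus and -3.01 in the cerebellum. For 41.1% of them both other regions lay nearer the olfactory bulb, and for 29.7% both lay nearer the cerebellum. The 1972 probes higher in the cerebellum had median levels of -0.30 there, -1.70 in the hypothalamus, -1.84 in the hippocampus and -2.03 in the olfactory bulb. For 62.7% of these both other regions lay nearer the olfactory bulb, and for 12.4% nearer the cerebellum. Over all 56573 probes tested, the 4 region medians lay between -1.68 and -1.65. These shares are descriptions, with no test of the difference between the directions.

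Some probes gave a signal in 1 of the regions alone. All olfactory bulb scans but no cerebellum scan had 323 probes well above background, and the reverse held for 161. For such probes the fold change has only a lower bound, taken as the mean of the bright arrays against the lowest level that counted as well above background on the dim scans, or the dim probe's own level where that was higher. ASMM10P033688 had levels of 3.61, 3.42 and 3.48 in the olfactory bulb and was not well above background on any cerebellum scan. Its lower bound was 825-fold. The fit used its cerebellum levels of -8.19 and -8.63, which are no measured signal, so no p is given for this probe. Its hypothalamus mean was -4.46 and its hippocampus mean -4.35. Among the array-design probes with signal in 1 region alone, the lower bound reached 2-fold for 166 of 315 in the olfactory bulb direction. In the cerebellum direction it did so for 75 of 158.

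The next probes of this kind were ASMM10P007487, at least 101-fold higher, ASMM10P004628, at least 97.3-fold, ASMM10P042498, at least 72.2-fold, and ASMM10P053629, at least 70.7-fold. They differed in where else they gave signal. ASMM10P004628 was higher in the hypothalamus, at a mean of 3.36, than on the olfactory bulb arrays, at 0.58, 0.33 and 0.35. ASMM10P007487 and ASMM10P042498 had hippocampus means of 0.85 and 0.91, against olfactory bulb means of 0.47 and -0.01. ASMM10P053629 was low in both, with a hypothalamus mean of -5.93 and a hippocampus mean of -5.59, against -0.07, -0.06 and 0.01 on the olfactory bulb arrays.

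In the reverse direction, ASMM10P030234 had levels of 2.67 and 2.56 in the cerebellum and was not well above background on any olfactory bulb scan, which made it at least 453-fold higher in the cerebellum. The hypothalamus (-8.33) and hippocampus (-8.05) means were as dim, so that it entered the test through the cerebellum alone and no p is given. ASMM10P057611 was at least 107-fold higher in the cerebellum, ASMM10P018690 at least 70.1-fold, ASMM10P009328 at least 58.6-fold and ASMM10P019349 at least 42.0-fold. Of the 3355 probes called higher in the olfactory bulb, 2909 rose well above background on each of the 6 scans and 291 on no cerebellum scan. Of the 1972 called higher in the cerebellum, 1790 did so on each of the 6 scans and 112 on no olfactory bulb scan.

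Called probes often adjoined one another in the numbering of the array design. This was looked for after the values had been seen, and the files do not say whether adjoining numbers target 1 transcript, so neighbours are not independent measurements. Among probes with ASMM10P names there were 941 pairs of consecutive numbers with both called, and 82.6% of them shared a direction. At a distance of 100 numbers there were 475 such pairs, of which 54.1% shared a direction. Runs of at least 3 consecutive called probes of 1 direction numbered 84 in the olfactory bulb direction, with 325 probes, and 42 in the cerebellum direction, with 138 probes.

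The longest run had 17 probes, ASMM10P039360 to ASMM10P039376, all higher in the olfactory bulb by 1.72 to 6.02 (median 5.19). ASMM10P039367, its largest, had levels of 2.40, 2.35 and 2.46 in the olfactory bulb and -3.57 and -3.66 in the cerebellum (limma adjusted p = 2.24e-08). Its hypothalamus mean of 1.29 and hippocampus mean of -0.36 fell between, and in all 17 probes the 4 means came in the order olfactory bulb, hypothalamus, hippocampus, cerebellum. All 17 were called under each of the 19 settings that gave a test. A further 7 probes, ASMM10P039352 to ASMM10P039358, were higher in the olfactory bulb by 2.15 to 5.61. They were parted from the longer run by ASMM10P039359, whose difference was 0.20 ± 0.232 (SE; limma adjusted p = 0.612).

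A run of 15 probes, ASMM10P014585 to ASMM10P014599, was higher in the olfactory bulb by 1.27 to 4.63. Its largest, ASMM10P014587, had levels of 4.45, 4.39 and 4.60 in the olfactory bulb and -0.12 and -0.18 in the cerebellum, with a hypothalamus mean of 2.07 and a hippocampus mean of 2.86. The groups did not overlap. Its hippocampus mean below the olfactory bulb was not typical of the run: in 12 of the 15 probes the hippocampus mean was higher, as in ASMM10P014597 at 4.14 against 3.11, and the hypothalamus mean was below the olfactory bulb in all 15. In the cerebellum direction the longest run had 6 probes, ASMM10P032514 to ASMM10P032519, which differed by 1.11 to 4.75 in size. ASMM10P032518 lay at 4.31 and 4.08 in the cerebellum and at -0.43, -0.68 and -0.54 in the olfactory bulb, and its hippocampus mean of 3.55 was nearer the cerebellum, as in 3 of the 6 probes.

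A smaller class of IDs, ASMM10UP, had 114 of 790 probes called (14.4%, against 9.42% of all probes). Of these, 81 were higher in the olfactory bulb (10.3%, against 5.93%) and 33 in the cerebellum (4.18%, against 3.49%). Its called probes were clustered too: of 33 consecutive pairs with both called, 32 shared a direction. At a distance of 100 numbers there were 8 such pairs, of which 3 shared a direction. The shares of this class thus rest in part on runs of neighbours, which are not independent measurements. The 8 probes ASMM10UP183 to ASMM10UP190 were higher in the olfactory bulb by 2.89 to 4.01. Among them, ASMM10UP188 and ASMM10UP189 were well above background on no cerebellum scan, so that their differences are no measured sizes. ASMM10UP183 had levels of 1.54, 1.34 and 1.47 in the olfactory bulb and -2.44 and -2.68 in the cerebellum. The hypothalamus (-2.76) and hippocampus (-4.07) means were as low, so that the olfactory bulb alone stood high. The 4 probes numbered just before this run, ASMM10UP179 to ASMM10UP182, did not pass, with differences of -0.68 to 0.06. A run of 10 probes, ASMM10UP478 to ASMM10UP487, was higher in the olfactory bulb by 1.16 to 3.06.

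**Figure D3:**
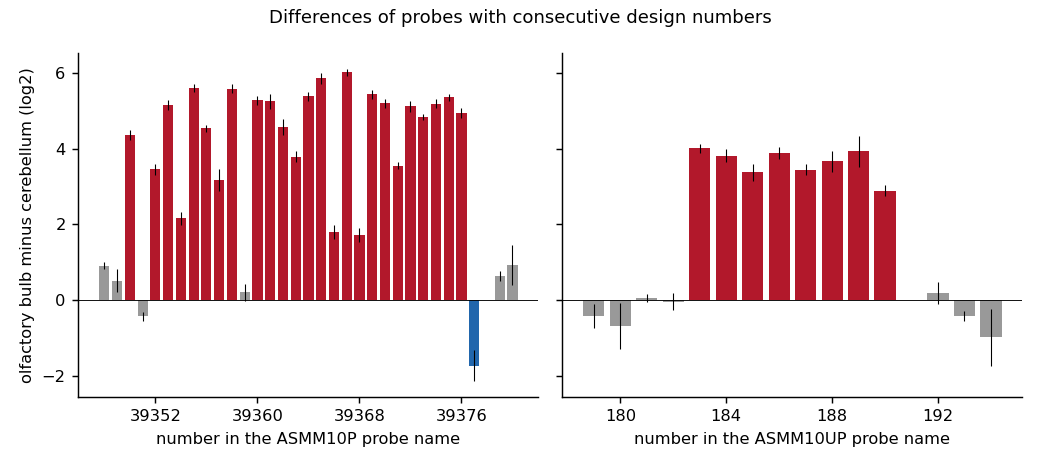
Difference of each tested probe (olfactory bulb minus cerebellum, log2, bar = SE of the fit) against its number, around ASMM10P039360 to ASMM10P039376 and ASMM10UP183 to ASMM10UP190. Red bars were called higher in the olfactory bulb, blue higher in the cerebellum and grey not called. Gaps are numbers without a tested probe, and ASMM10P039359 stands at 0.20 between called neighbours on either side. ASMM10UP188 and ASMM10UP189 were well above background on no cerebellum scan and ASMM10P039377 on no olfactory bulb scan. Their bars are no measured sizes.

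Few of the probes named for lincRNAs were called. Of 1432 tested, 19 were higher in the olfactory bulb and 14 in the cerebellum, 33 in all (2.3%, against 9.42% of all probes). By name, 17 of 851 human lincRNA probes (2.0%), 15 of 504 mouse lincRNA probes (2.98%) and 1 of 77 probes for mm9 lincRNA exons (1.3%) were called. The median level of these probes was -3.25, against -1.67 over all probes tested. In the tenth of tested probes whose median level was -3.37, 5.71% were called higher in the olfactory bulb and 3.41% in the cerebellum. For the lincRNA-named probes these shares were 1.33% and 0.978%. The part of the level in the difference between the shares was not tested. The cerebellum count was 37 without olfactory bulb array 1 and 28 with the replicate block. The olfactory bulb count was 5 after normexp background correction and 8 when each of the 12 scans had to be well above background.

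The largest lincRNA difference was that of mouselincRNA0100-_P1, at -2.70, -2.96 and -2.66 in the olfactory bulb and -5.88 and -5.77 in the cerebellum. The groups did not overlap, and the 8.27-fold difference passed (limma adjusted p = 1.6e-06), while the hypothalamus mean of -5.73 and hippocampus mean of -6.16 lay with the cerebellum. mouselincRNA0513-_P1 was 5.35-fold higher in the olfactory bulb, at -0.74, -0.99 and -0.84 against -3.18 and -3.38. Its hypothalamus mean of -1.0 lay with the olfactory bulb.

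The other leading probes of this direction were dim. mouselincRNA0675-_P1, humanlincRNA0931-_P1 and humanlincRNA1015+_P1 were not well above background on any cerebellum scan, and the last was well above it on only 2 of 3 olfactory bulb scans. For the first 2 the olfactory bulb exceeded the cerebellum by at least 1.61-fold and 1.5-fold. For humanlincRNA1015+_P1 no bound is given, since its olfactory bulb mean includes an array not well above background. A 2-fold difference was thus not measured for any of these probes. After normexp correction their differences were 0.66, 0.49 and 0.45, below the size threshold. Of the 19 probes of this direction, 10 were not well above background on at least 1 of the 6 scans, against 1 of 14 in the cerebellum direction.

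In the cerebellum direction, mouselincRNA0538-_P1 was 5.96-fold higher, at -1.54 and -1.73 against -4.01, -4.26 and -4.36 (limma adjusted p = 1.66e-05). humanlincRNA1086-_P1 was 5.15-fold higher, at 0.72 and 1.17 against -1.89, -1.5 and -0.88. The groups did not overlap in either, though the olfactory bulb arrays of the second spread over more than 1 log2 unit. humanlincRNA2052+_P1 lay at 3.70 and 3.99 in the cerebellum and at 1.38, 1.58 and 1.93 in the olfactory bulb, a 4.65-fold difference. mouselincRNA0696+_P1 lay at 3.63 and 3.82 and at 1.42, 1.58 and 1.78, a 4.38-fold difference. Both had their lowest mean in the hypothalamus, at 0.23, and hippocampus means of 1.44 and 1.34; their likeness was noticed after the values had been seen, and whether both names stand for 1 transcript was not tested.

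humanlincRNA0900+_P1 was well above background on all cerebellum scans and on no olfactory bulb scan, at least 1.46-fold higher. The hypothalamus (-7.44) and hippocampus (-6.54) means were dim too. The probe may thus have entered the test through the cerebellum alone, and no p is given. Its call was lost without cerebellum array 1 and after normexp correction. The exon probe MM9LINCRNAEXON10627+_P1 was 3.03-fold higher in the cerebellum, at -1.62 and -1.80 against -3.17, -3.43 and -3.32.

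The name of a lincRNA probe carries a strand sign, and for 521 loci both signs were tested. In 23 loci 1 sign was called, and in 0 loci both were, by limma with or without the replicate block. In 5 loci both had an unadjusted p under 0.05. With 2.3% of all lincRNA-named probes called, loci with both called would be rare in any case, so the 0 says little about strands. At mouselincRNA0100 the minus probe differed by 3.05 and the plus probe by -0.06 (limma adjusted p = 0.831). At humanlincRNA1086 the minus probe differed by -2.37 and the plus probe by 0.19 (adjusted p = 0.62). A sign that was not called is not shown to be equal between the regions.

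**Figure D4:**
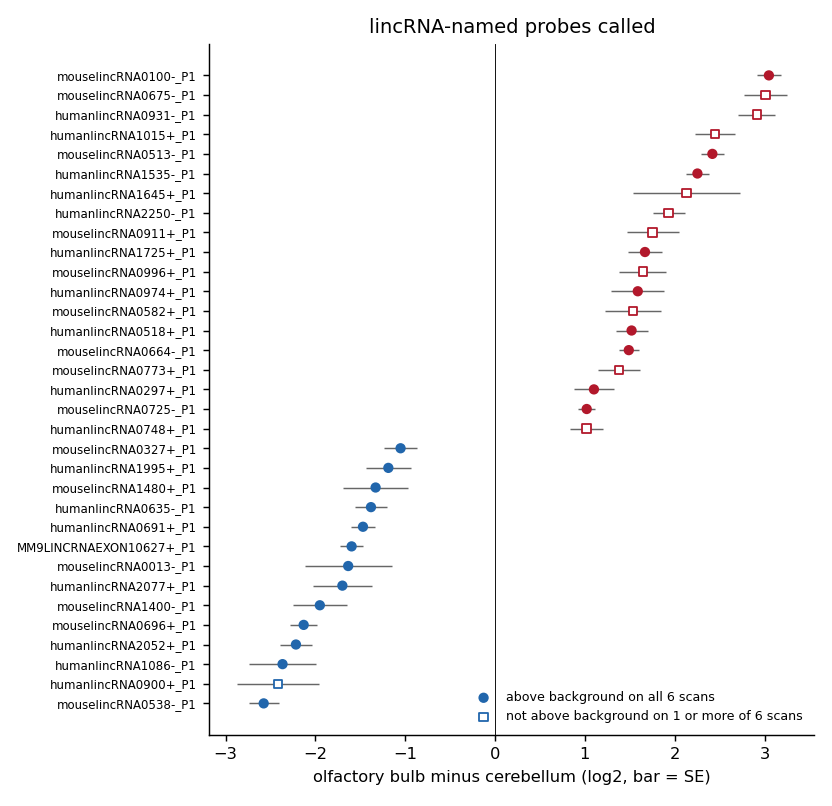
Difference of the 33 called lincRNA-named probes (olfactory bulb minus cerebellum, log2, bar = SE of the fit), with 19 higher in the olfactory bulb (red) and 14 in the cerebellum (blue). Open squares mark the 10 and 1 probes that were not well above background on at least 1 of the 6 scans, whose plotted difference is no measured size.

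The 15 genes that the files name are mostly ones used as references, each measured by a probe with 20 copies per scan. Of these, 4 were higher in the olfactory bulb and 2 in the cerebellum at the adjusted p alone (40.0%, against 21.6% of all probes), and 9 did not pass. With the replicate block 9 of the 15 passed, and the share of all probes that did so was 36.2%.

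The cytoskeletal genes differed from each other in outcome. Actb, which encodes a cytoplasmic actin, had levels of 3.93, 3.93 and 4.14 in the olfactory bulb and 3.32 and 3.30 in the cerebellum. All olfactory bulb arrays lay higher, by 0.69 ± 0.0997 (SE; 1.62-fold, limma adjusted p = 0.00151). Tuba1b, an alpha-tubulin gene, differed by 0.24 ± 0.101 and did not pass (limma adjusted p = 0.154). It did pass with the replicate block (adjusted p = 0.0086) and after median scaling (adjusted p = 0.0466).

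Among genes of the cell surface, B2m, the light chain of class I major histocompatibility molecules, lay at 3.35, 3.21 and 3.28 in the olfactory bulb and at 2.70 and 2.56 in the cerebellum. The groups did not overlap, and B2m was higher in the olfactory bulb by 0.66 ± 0.0974 (SE; 1.57-fold, limma adjusted p = 0.0018). Tfrc, the transferrin receptor that brings iron into cells, differed by 0.11 ± 0.0959 and did not pass (adjusted p = 0.515).

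Among the metabolic enzymes, Ldhal6b, a lactate dehydrogenase-like gene, had the only difference of at least 2-fold. Its levels were -1.25, -1.06 and -1.25 in the olfactory bulb and -2.51 and -2.48 in the cerebellum, a difference of 1.31 ± 0.199 (SE; 2.48-fold, limma adjusted p = 0.00206). The hypothalamus mean of -2.57 and the hippocampus mean of -2.49 were as low as the cerebellum, so that the olfactory bulb alone stood high. G6pd2, a retrogene copy of the glucose-6-phosphate dehydrogenase gene G6pdx, went the other way, at -0.17, -0.31 and -0.21 in the olfactory bulb and 0.57 and 0.51 in the cerebellum. The cerebellum was higher, with a difference of -0.77 ± 0.0849 (SE; 1.71-fold, limma adjusted p = 0.000342). Whether this probe also binds RNA of G6pdx was not tested.

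Gapdh, an enzyme of glycolysis, lay at 6.87, 6.71 and 6.82 in the olfactory bulb and at 6.91 and 6.69 in the cerebellum, and the groups overlapped (difference 0.00 ± 0.115, limma adjusted p = 0.999). Gk, glycerol kinase, differed by 0.16 ± 0.235 (adjusted p = 0.69). Hprt, of purine salvage, differed by 0.07 ± 0.0984 (adjusted p = 0.699) and turned to -0.10 under quantile normalization. Gusb, a lysosomal enzyme that cleaves glucuronides, was higher in the olfactory bulb by 0.38 ± 0.109 (SE; 1.3-fold, limma adjusted p = 0.0424). Its levels of -0.30, -0.48 and -0.44 did not overlap with -0.71 and -0.86. This call was lost without any 1 of the 5 arrays (adjusted p 0.0649 to 0.223), with the 2 regions fitted alone (0.156) and with a 75th percentile over bright probes (0.057).

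Among genes of protein synthesis and folding, Hsp90ab1, a cytosolic chaperone, lay at 4.45, 4.26 and 4.35 in the olfactory bulb and at 4.88 and 4.68 in the cerebellum. The difference of -0.43 ± 0.117 passed (limma adjusted p = 0.0343), but not without olfactory bulb array 2 (0.104) or 3 (0.0849), nor without cerebellum array 1 (0.217) or 2 (0.0509), nor with the 2 regions fitted alone (0.124). Ppia, a prolyl isomerase that helps proteins fold, differed by 0.13 ± 0.0895 (adjusted p = 0.396) and turned to -0.03 under quantile normalization. Rpl13a, a protein of the large ribosomal subunit, differed by 0.26 ± 0.172 (adjusted p = 0.385) and passed with the replicate block (adjusted p = 0.0027).

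Of the nuclear genes, Tbp, the TATA-binding protein of the transcription machinery, lay at 0.68, 0.44 and 0.58 in the olfactory bulb and at 1.03 and 0.81 in the cerebellum. Its difference of -0.35 ± 0.138 did not pass (limma adjusted p = 0.123), though the groups did not overlap. It passed with the replicate block (adjusted p = 0.00119), after median scaling (0.0437) and with all 12 scans as arrays (0.0254). Nono, an RNA-binding protein of nuclear paraspeckles, differed by 0.07 ± 0.109 (adjusted p = 0.732).

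**Figure D5:**
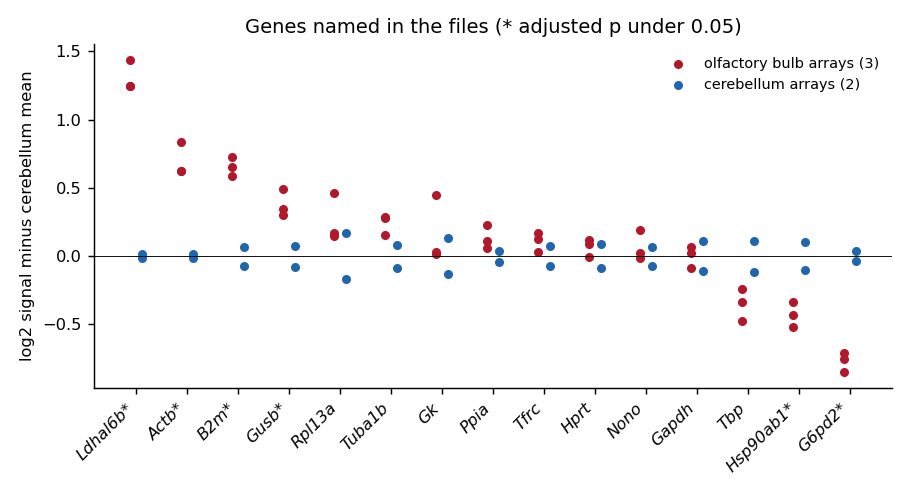
Level of the 15 named genes on each array minus the gene's cerebellum mean (log2), with 1 point per olfactory bulb array (red, 3) and cerebellum array (blue, 2). Stars mark the 6 genes with an adjusted p under 0.05: the red points lie above the blue for Ldhal6b, Actb, B2m and Gusb and below for Hsp90ab1 and G6pd2.

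Control probes near both ends of a transcript were set against each other. The excess of 1 end also holds the binding strength of each probe, so that only its difference between the regions bears on labelling. The 3 prime probe of Pgk1, a glycolytic kinase, exceeded its 5 prime probe by 7.23, 7.43 and 7.48 on the olfactory bulb arrays and by 7.45 and 7.67 on the cerebellum arrays. For Gapdh the excess was 1.30, 1.14 and 1.19 against 1.26 and 1.09. The arrays of both regions overlapped in each case, with means of 7.38 ± 0.135 (SD, n = 3) and 7.56 ± 0.158 (SD, n = 2) for Pgk1 and of 1.21 ± 0.0776 (SD, n = 3) and 1.18 ± 0.115 (SD, n = 2) for Gapdh.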

How the data were processed

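Per the labels' protocols, RNA depleted of ribosomal RNA was labelled with Cy3 by random priming. Per the file headers, the authors extracted each spot's intensity with Agilent Feature Extraction 11.0.1.1, which also subtracted background and a spatial trend. A value table deposited by the authors holds 60804 probes on the log2 scale and served as an alternative; its normalization is not stated in the sources used.

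From the processed signal, log2 values minus each scan's 75th percentile were computed, outlier spots dropped and copies averaged. A probe was tested when every scan of 1 or more of the 4 regions had it well above background. The fit (R 4.3.3, limma 3.58.1, lmFit and eBayes, Benjamini-Hochberg) held 10 arrays with a spread shared by the 4 regions and 6 residual degrees of freedom; near-identical hippocampus scans 1 and 3 were averaged as well. A call needed an adjusted p under 0.05 and a log2 difference of at least 1. The number of arrays limits the precision. Code was tested on simulated data.

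The members and lists were chosen with earlier results of these data known. Named probes were the 10 largest called array-design probes per direction, the 5 largest lower bounds, the 5 largest lincRNA-named probes and the largest of each name class, and all 15 genes, whose RefSeq accessions all matched. Alternatives were scalings (quantile, median, another 75th percentile), normexp (offset 50), the authors' table, filters on dim probes, the replicate block, eBayes with trend, 2 regions alone, all 12 scans, first scans, and leaving out each array. Probe sequences and coordinates were not used here.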

Additional observations from a re-analysis of the deposited data

Results flagged for a closer look

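Of 15 probes named as negative and left out of every comparison, 2 gave signal in both regions. MM9NEGATIVE016 and MM9NEGATIVE017 were well above background at all their spots on all 6 scans, with lowest signals of 78.8 and 136.6. Both were lower in the olfactory bulb, with differences of -0.50 and -0.37 that were not tested. Arrays of MM9NEGATIVE016 lay at -4.29, -4.35 and -4.21 in the olfactory bulb and at -3.78 and -3.79 in the cerebellum, and what these probes bind was not tested.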

How the results depend on the processing

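Leaving out 1 array at a time gave 3193 to 3462 probes higher in the olfactory bulb and 1565 to 2430 higher in the cerebellum, 4 to 5 genes past the adjusted p, 16 to 26 and 11 to 37 lincRNA-named probes in the olfactory bulb and cerebellum directions, and differences in the 3 prime excess of -0.29 to -0.07 for Pgk1 and -0.05 to 0.12 for Gapdh. The share higher in the olfactory bulb ran from 57.1% (without olfactory bulb array 1) to 68.9% (without cerebellum array 1). Under other scalings, backgrounds, filters and variance models it stayed within 59.7% to 64.2%.

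Counts moved where the rule itself moved. At a log2 difference of at least 2, 1297 and 571 probes were called, and with no size threshold 7209 and 5001. Probes well above background in the olfactory bulb alone numbered 514 and in the cerebellum alone 301 with 2 of 3 scans required, and 691 and 537 with 1 scan of the other region allowed. Within scan time 1, with no test, 3823 probes exceeded 2-fold in the cerebellum direction, and 55 and 124 lincRNA-named probes in the olfactory bulb and the cerebellum; within scan time 2 these were 6281, 33 and 252. lincRNA counts were 5 for the olfactory bulb after normexp and 8 among probes well above background on all scans, and for the cerebellum 28 with the replicate block and 29 with all 12 scans as arrays. The cause of these last 4 was not tested.

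Replicate numbers follow scan times for the 10 arrays except in the averaged arrays. Cerebellum array 1 and hippocampus array 1 each hold scans of scan times 1 and 4. The replicate block is thus not strictly a scan-time block. Same-numbered arrays deviated from their region means with correlations of 0.0935 to 0.747 over 13 pairs, the lowest between the olfactory bulb and cerebellum of replicate 2. All 13 correlations were positive, so that same-numbered arrays shared part of their deviation, and its cause was not tested. The main fit held no block. With the replicate block 20505 probes passed the adjusted p, against 12210 without it. The replicate block gave 3389 and 2292 called probes, and 9 genes passed.

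Among the named probes and genes, the values whose sign turned were those of genes that had not passed: Ppia (-0.0297), Hprt (-0.0984) and Tfrc (-0.0274) under quantile normalization, Nono (-0.0042 to 0.136) and Hprt (-0.0209 to 0.155) when arrays were left out, both lowest without cerebellum array 2, and Gapdh after median scaling (0.0081), normexp (0.0019), the replicate block (0.0021), or without olfactory bulb array 2 (0.0435) or cerebellum array 1 (-0.1089 to 0.1085 over all arrays left out). The untested Gapdh 3 prime difference turned to -0.05 without cerebellum array 2 and to -0.0073 without olfactory bulb array 1, and 2 called probes of each direction turned within scan time 1. Of the other values of named probes and genes, 1035 kept direction and side of the threshold, 19 moved, 17 lost the call and 6 gained it. After the data were seen, the 4 longest runs were recounted under the 19 settings with a test: all 17, 14 to 15 of 15, 8 to 10 of 10 and 6 to 8 of 8 members were called. Signal over background limits dim probes most, whose folds are bounds.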
